A study of Homo sapiens with 6 samples.

Results

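The EGF receptor genes described here were AREG, EREG and those of HBEGF, TGFA, BTC, EPGN, EGFR, ERBB2, ERBB3 and ERRFI1 that the deposited expression table listed. Of these 10 genes, 5 were in the table of 2257 rows, namely the ligand genes AREG, EREG and HBEGF, the receptor gene EGFR and the inhibitor gene ERRFI1. TGFA, BTC, EPGN, ERBB2 and ERBB3 were not in the table and were not analysed here. Poly(A) RNA was sequenced from Caco-2 cells, an established human colorectal adenocarcinoma line that serves as a model for the lining of the intestine, to compare cells after hypoxia and reoxygenation (H/R, 3 samples) with control cells (control, 3 samples). All 6 samples carried the genotype label WT, and only the treatment label differed between the groups. The study's methods list several reoxygenation times without saying which one the sequenced cells had, and for RNA-seq they name H/R cells given si-NC or si-TMEM2, whereas the labels of these 6 samples name no transfection, so their transfection state is not settled here. Whether the replicates were separate cultures is not stated, so a p-value below speaks only of the spread among these samples, possibly a technical one.

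The table looked selected for change between the groups. Of 2184 distinct rows with both group means above 0, 92.3% had a ratio of mean FPKM (fragments normalized to transcript length and to the mapped fragments of the library) that was at least 2, whichever group was higher. AREG and EREG were chosen for description with their H/R and control values known, and the other members had to be in a table selected on the same contrast. Their differences between H/R and control are therefore given as a description, with no test. Levels are mean ± SD of FPKM (n = 3 per group), and log2 differences are the mean log2(FPKM + 1) of H/R minus that of control, with an SE computed for each gene from the SD of its samples in the 2 groups. The depth of the libraries is unknown, since neither counts nor totals of mapped fragments were used here. The label of intestinal epithelial cells could not be checked in this table, which held 1 of 12 epithelial marker genes (KRT20, at 1.32 to 1.68 FPKM in H/R samples and 0.19 to 0.43 FPKM in control samples). As for cells of another type, 2 of 8 fibroblast genes, 1 of 6 leukocyte genes and 1 of 5 endothelial genes were listed, with summed levels in H/R samples of 27.3 to 34.65, 4.91 to 5.96 and 7.94 to 11.4 FPKM, against 20.3 to 28.2, 10.4 to 15.7 and 3.15 to 4.12 FPKM in control samples, and none of these genes was at 0. The fibroblast genes moved in opposite directions, PDGFRA with 20.1 to 27.8 FPKM in H/R samples and 4.66 to 12.5 FPKM in control samples (log2 difference 1.51), and COL1A1 with 6.84 to 7.22 FPKM in H/R samples and 15.3 to 15.7 FPKM in control samples (-1.04). Their part in the results was not tested, and in bulk RNA a change in the number of cells of a type cannot be told apart from a change in RNA per cell.

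As background, the ligands of the EGF receptor are made as proteins anchored in the cell membrane, and their outer part is cut off by metalloproteinases, chiefly ADAM17, so that it can bind receptors on the same cell or on neighbours. Binding joins receptor molecules into dimers, the kinase domains phosphorylate each other, and the signal runs through adaptors, RAS, RAF and MEK to the kinase ERK. ERK then induces transcription factor genes, several ligand genes and the genes of its own inhibitors. In the intestine this pathway supports proliferation of crypt cells and the healing of the epithelium after injury.

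AREG and EREG are neighbours on chromosome 4, and their promoters are shown because these ligand genes had the largest differences among the members. In the RefSeq gene order the genes run EPGN, EREG, AREG and BTC, and all 4 encode EGF receptor ligands. EREG and AREG were in the table, while EPGN and BTC were not. None of the 8 protein-coding genes before EPGN in that order, among them the chemokine genes CXCL1, CXCL2, CXCL3 and CXCL5, nor the 8 after BTC, was in the table. The 250 bases before the annotated start of each gene are printed 5′ to 3′ on the strand of the gene, from RefSeq on build GRCh38.p14, at chr4:74444886-74445135 for AREG and chr4:74364895-74365144 for EREG, both on the plus strand. Capitals mark matches, on either strand, to TGACGTCA (the cyclic AMP response element, CRE) or its part TGACG, to ACGTG or GCGTG (core of the hypoxia response element) and to GGAATG (TEAD motif).
AREG: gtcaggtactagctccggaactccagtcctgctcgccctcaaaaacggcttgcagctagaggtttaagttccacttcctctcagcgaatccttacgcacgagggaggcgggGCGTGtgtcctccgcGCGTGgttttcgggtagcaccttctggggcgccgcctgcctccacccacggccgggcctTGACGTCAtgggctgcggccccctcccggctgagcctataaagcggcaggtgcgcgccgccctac
EREG: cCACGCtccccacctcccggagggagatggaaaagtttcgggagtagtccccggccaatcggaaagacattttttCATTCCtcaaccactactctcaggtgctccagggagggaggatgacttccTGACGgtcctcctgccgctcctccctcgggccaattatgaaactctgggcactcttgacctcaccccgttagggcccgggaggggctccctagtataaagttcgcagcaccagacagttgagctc
The AREG promoter held 1 full CRE, TGACGTCA, from 65 to 58 bases before the start, a motif found in 1.65% of 35116 RefSeq promoter windows of the same length. This CRE contains TGACG on both strands, and the EREG promoter held TGACG once, at 125 to 121 bases before the start, with no full CRE. TGACG occurred in 21.2% of all windows. The AREG promoter had 2 hypoxia response cores and the EREG promoter 1, a motif of 43.2% of all windows. The EREG promoter also held 1 TEAD motif, read as CATTCC at 175 to 170 bases before the start, which 11.9% of all windows hold. TGANTCA, the motif of AP-1, was in neither window and occurs in 6.57% of all windows. In the windows of HBEGF and ERRFI1, and in that of the upstream start of EGFR, none of these motifs was found. The window of the downstream EGFR start held 2 AP-1 motifs and 1 TEAD motif. These matches describe letters only, and binding was not measured.

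AREG, which encodes amphiregulin, was the most abundant of the members in both groups. It had 354, 509 and 377 FPKM in H/R replicates 1, 2 and 3, against 77.7, 89.7 and 93.8 FPKM in control replicates 1, 2 and 3. The lowest H/R sample was 3.78 times the highest control sample. The mean was 414 ± 83.8 FPKM in H/R and 87.0 ± 8.37 FPKM in control, a ratio of 4.75 and a log2 difference of 2.22 ± 0.18 (SE). By mean level, AREG was at rank 35 of 2034 rows in H/R and at rank 294 in control. AREGB, now a synonym of AREG in RefSeq, had no row of its own.

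EREG, which encodes epiregulin, a ligand of EGFR and ERBB4, had the largest log2 difference of the members. Its levels were 32.2, 66.2 and 39.2 FPKM in H/R replicates 1, 2 and 3, against 6.55, 6.55 and 10.6 FPKM in control replicates 1, 2 and 3. The groups did not overlap, and EREG varied most among the members within H/R, where its SD was 39.1% of the mean. The means were 45.9 ± 17.9 FPKM in H/R and 7.89 ± 2.31 FPKM in control, a ratio of 5.82 and a log2 difference of 2.36 ± 0.37. The difference was close to that of AREG relative to these errors, and EREG and AREG had ranks 57 and 73 among the log2 differences of the 2034 rows, counted from the largest.

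HBEGF encodes the heparin-binding ligand of EGFR and ERBB4. It had 16.7, 27.0 and 18.1 FPKM in H/R replicates 1, 2 and 3, against 5.27, 5.24 and 6.61 FPKM in control replicates 1, 2 and 3. All H/R samples were above all control samples. The means were 20.6 ± 5.58 FPKM in H/R and 5.71 ± 0.782 FPKM in control, with a log2 difference of 1.66 ± 0.23.

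EGFR, the receptor of all 3 ligands, had the smallest difference of the members. It had 44.9, 38.4 and 37.8 FPKM in H/R replicates 1, 2 and 3, against 15.5, 18.4 and 24.8 FPKM in control replicates 1, 2 and 3. The groups did not overlap, although the gap was narrow, with the lowest H/R sample at 1.52 times the highest control sample. The means were 40.4 ± 3.97 FPKM in H/R and 19.6 ± 4.75 FPKM in control, with a log2 difference of 1.03 ± 0.20. Without control replicate 1 this difference was 0.88, under the 2-fold line, and it was 0.95 without H/R replicate 1, 0.997 without control replicate 2 and 0.97 with quantile normalization. The antisense gene EGFR-AS1 overlaps EGFR, and strand-specific counting is not stated by the sources used here, so reads of these genes may not have been told apart.

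ERRFI1 encodes MIG6, which binds the EGFR kinase domain and inhibits it, and is induced by EGFR signalling. It had 47.65, 87.0 and 53.0 FPKM in H/R replicates 1, 2 and 3, against 18.1, 23.3 and 21.8 FPKM in control replicates 1, 2 and 3. Every H/R sample was more than 2 times the highest control sample, with the lowest at 2.05 times. The means were 62.5 ± 21.4 FPKM in H/R and 21.1 ± 2.64 FPKM in control, with a log2 difference of 1.48 ± 0.28.

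**Figure D1:**
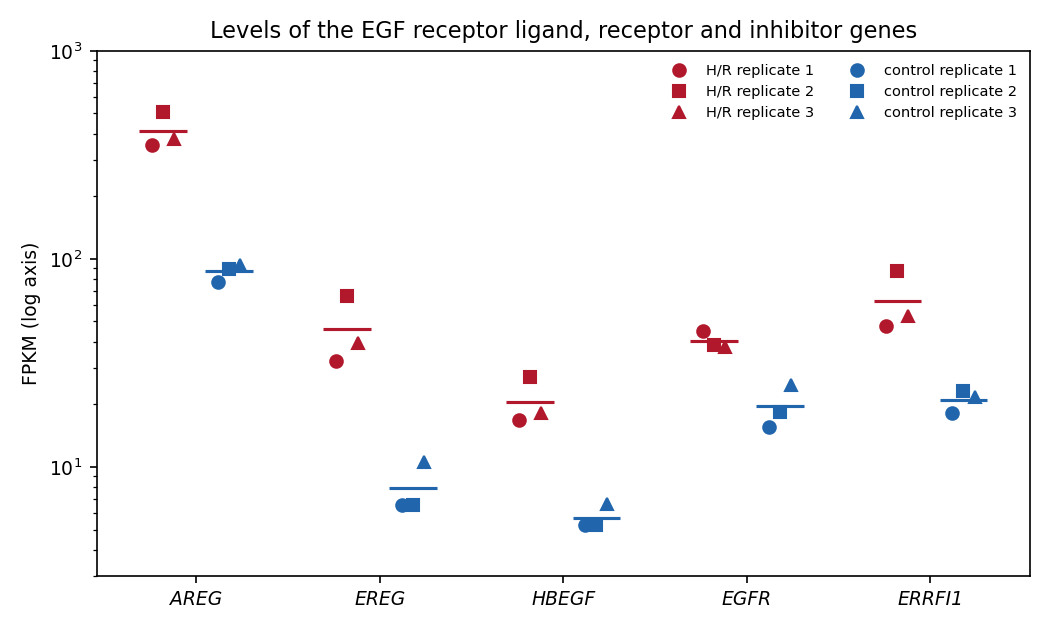
FPKM of the 5 member genes on a log axis, with each sample as a point (H/R red, control blue, shape by replicate) and the group mean as a line. No member has overlapping groups, and AREG is highest throughout, at 354 to 509 FPKM in H/R samples and 77.7 to 93.8 FPKM in control samples.

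All 5 members were at least 2-fold higher in H/R on the log2(FPKM + 1) scale, and in all 5 every H/R sample was above every control sample. Among all 2034 rows with a mean of at least 1 FPKM, 34.8% were at least 2-fold higher and 42.6% had every H/R sample above every control sample. The members were known to be high in H/R when they were chosen, so nothing is read from these counts. The median log2 difference was 1.66 over the members, -0.80 over all 2034 rows and 1.19 over the 937 rows that rose.

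The order of the mean levels, which FPKM allows because it is per length of transcript, changed between the groups. In H/R samples it was AREG, ERRFI1, EREG, EGFR and HBEGF by mean, and in control samples AREG, ERRFI1, EGFR, EREG and HBEGF. EREG and EGFR thus exchanged places. Among neighbours in H/R, the samples of ERRFI1 and EREG overlapped, as did those of EREG and EGFR, whereas AREG lay above all others and HBEGF below. In control, the samples of ERRFI1 and EGFR overlapped, and so did those of EREG and HBEGF, where 1 HBEGF sample (6.61 FPKM) was just above the 2 lower EREG samples (6.55 FPKM).

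Relative to EGFR, the ligand genes were higher in H/R. The log2 difference of EGFR was the smallest of the members, at rank 667 of 2034 rows. It was also under the median of 1.19 over the rows that rose. Many other rows that rose were thus higher relative to EGFR as well, so this is not particular to the ligands. The ratio of AREG to EGFR within a sample, which no scaling of whole libraries alters, was 7.88, 13.3 and 9.99 in H/R replicates 1, 2 and 3, against 5.0, 4.87 and 3.78 in control replicates 1, 2 and 3. For EREG the ratio to EGFR was 0.717, 1.73 and 1.04 in H/R samples, against 0.422, 0.356 and 0.426 in control samples. The ratio of HBEGF to EGFR also did not overlap between the groups, with 0.372, 0.703 and 0.478 in H/R samples, against 0.339, 0.285 and 0.267 in control samples, although the lowest H/R sample was close to the highest control sample. ERRFI1 differed from the ligands here. Its ratio to EGFR was 1.06, 2.27 and 1.40 in H/R samples, against 1.17, 1.27 and 0.878 in control samples, and the groups overlapped.

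**Figure D2:**
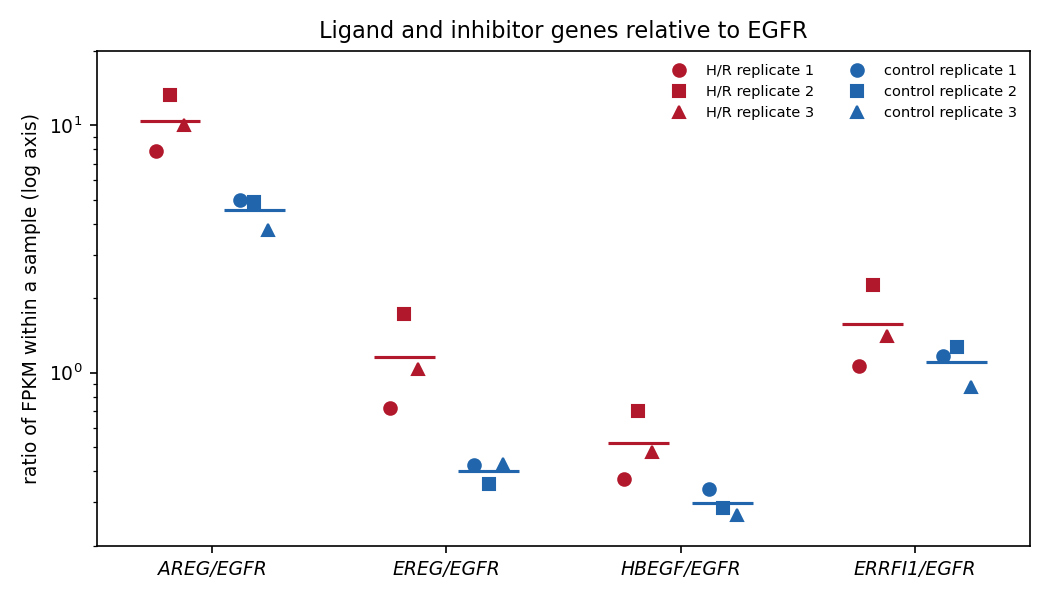
Ratio of AREG, EREG, HBEGF and ERRFI1 to EGFR within each sample, from FPKM, on a log axis (H/R red, control blue, shape by replicate, line at the group mean). The H/R samples lie above the control samples for the 3 ligands, while for ERRFI1 the H/R samples (1.06 to 2.27) and the control samples (0.878 to 1.27) overlap.

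The summed level of AREG, EREG and HBEGF was 403, 603 and 435 FPKM in H/R replicates 1, 2 and 3, against 89.5, 101 and 111 FPKM in control replicates 1, 2 and 3. The share of AREG, the largest, was nearly the same in both groups, while that of HBEGF was lower in H/R. AREG made up 86.4 ± 1.70% of the sum in H/R and 86.6 ± 1.94% in control, and EREG 9.33 ± 1.52% in H/R and 7.76 ± 1.58% in control, with overlapping groups for each. HBEGF made up 4.26 ± 0.187% in H/R and 5.67 ± 0.440% in control, and these groups did not overlap.

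Which sample of a group was highest was not part of the choice of members, and the members other than EGFR shared a pattern there. AREG, EREG, HBEGF and ERRFI1 were all highest in H/R replicate 2 and lowest in H/R replicate 1, whereas EGFR was highest in H/R replicate 1 and lowest in H/R replicate 3. H/R replicate 2 was above the H/R mean by 0.32 on the log2 scale for AREG, 0.59 for EREG, 0.40 for HBEGF and 0.52 for ERRFI1, and EGFR deviated by -0.07. Among all 2034 rows, 39.1% were highest in H/R replicate 2, and among the 937 rows that rose 34.3%. H/R replicate 1 was the lowest H/R sample in 48.6% of all rows and in 59.4% of the rows that rose, so that part of the pattern was common. The median deviation of H/R replicate 2 over the rows that rose was 0.08. In control, AREG, EREG, HBEGF and EGFR were highest in replicate 3 and ERRFI1 in replicate 2, and 65.2% of the rows that rose were highest in control replicate 3. These are descriptions of 3 samples a group, and genes are not independent of each other within a sample.

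**Figure D3:**
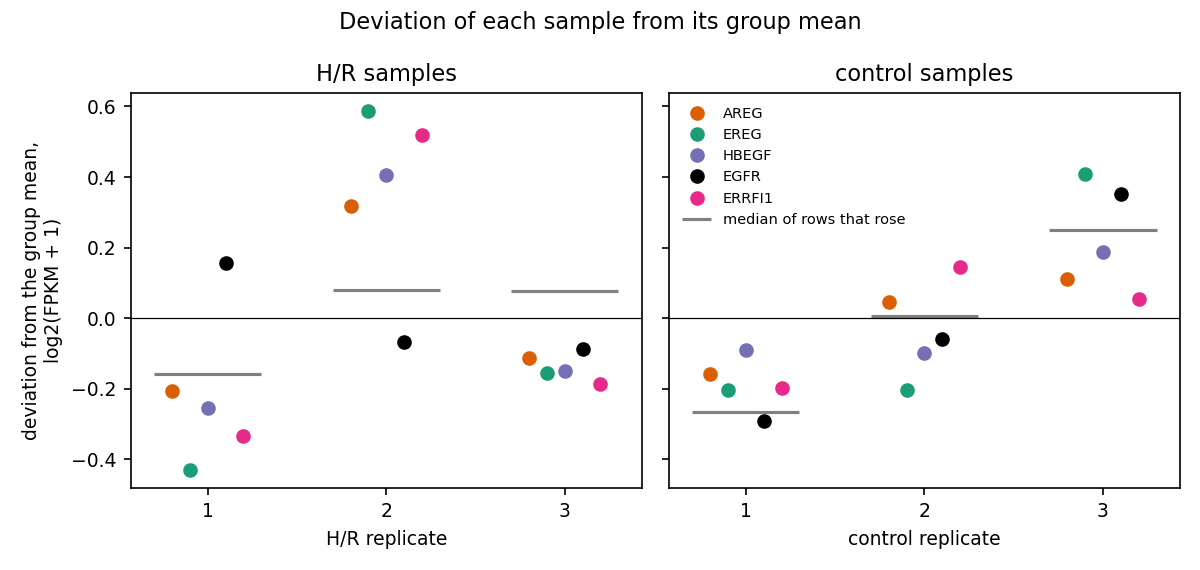
Deviation of each sample from its group mean on the log2(FPKM + 1) scale for the 5 members (points) and the median over the 937 rows that rose (grey lines), in H/R (left) and control (right). In H/R replicate 2 the points of AREG, EREG, HBEGF and ERRFI1 lie at 0.32 to 0.59, above the grey line at 0.08, and that of EGFR at -0.07.

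The libraries of a group also differed along GC content. For each 10 points of GC, rows deviated from the group mean by 0.16, -0.03 and -0.13 on the log2 scale in H/R replicates 1, 2 and 3, and by 0.26, -0.0016 and -0.26 in control replicates 1, 2 and 3. The median GC content of the protein-coding transcripts (GENCODE release 29) was 43.6% for AREG, 36.1% for EREG, 50.9% for HBEGF, 52.8% for EGFR and 48.3% for ERRFI1, against 47.4% for rows that rose and 57.1% for rows that fell. The part of GC content in the differences between the groups, and in the peak of 4 members in H/R replicate 2, was not tested. Without H/R replicate 2, the log2 differences were 2.06 for AREG, 2.07 for EREG, 1.46 for HBEGF and 1.22 for ERRFI1.

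The profiles most like AREG and EREG were found by Euclidean distance over the 6 samples, on log2(FPKM + 1) centred on the control mean, among 2136 other rows with a gene symbol. The 5 rows nearest to AREG were KLF4, a transcription factor gene of differentiated epithelium (distance 0.38), PHLDA1 (0.39), SH2B3, which encodes an adaptor that dampens cytokine signalling (0.45), the nuclear receptor gene NR4A1 (0.45) and the lactate dehydrogenase gene LDHA (0.46). KLF4 had 14.5, 15.1 and 13.5 FPKM in H/R replicates 1, 2 and 3, against 2.16, 2.78 and 2.42 FPKM in control replicates 1, 2 and 3. The 5 rows nearest to EREG were the transcription factor gene KLF6 (distance 0.36), the kinase gene PLK2 (0.46), PHLDA1 (0.57), the small GTPase gene ARL14 (0.58) and AREG itself (0.58). KLF6 had 39.8, 88.3 and 54.0 FPKM in H/R replicates 1, 2 and 3, against 8.73, 11.5 and 14.2 FPKM in control replicates 1, 2 and 3, with the same highest and lowest H/R samples as EREG. PHLDA1 was near to both ligand genes. Distances were computed with the pseudocount of 1 alone, which damps the differences of low genes. With a pseudocount of 0.1, the log2 differences were 2.49 for EREG, 2.34 for KLF6, 3.03 for PLK2, 2.45 for PHLDA1 and 3.48 for ARL14. They were 2.23 for AREG, 2.51 for KLF4, 2.39 for SH2B3, 2.42 for NR4A1 and 2.10 for LDHA. Whether the same rows would be nearest there was not tested. Seen from AREG, EREG was at rank 17, HBEGF at 80, ERRFI1 at 158 and EGFR at 607 of the 2136 rows. HBEGF and ERRFI1 were closer to each other (distance 0.45) than either was to AREG (0.99 and 1.31).

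To see what other genes of the pathway did, 7 lists with 111 genes were counted, of which 39 were in the table. All 39 rose after H/R and 0 fell (limma, adjusted p under 0.05 over all 2034 rows tested), where 46.1% of all rows rose and 52.9% fell. Since all 39 differences were positive, neither an unadjusted threshold nor an ordinary linear model could have given a fall. The lists were chosen with earlier results of these data known and the table was selected for change. Nearly every row tested passed in either direction, so a call adds little to a gene being in the table. Nothing is therefore read from these counts for the 39 genes, and they say nothing of the 72 listed genes that the table did not hold. The adjusted p-values given below carry the same limit. The median log2 difference of the 39 genes was 1.70, and in 38 of them every H/R sample was above every control sample.

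Upstream of the receptor, few genes were in the table. The lists of other ERBB ligands (EGF and the neuregulin genes NRG1 to NRG4) and of ERBB4 had no row. Of 16 genes for the release of ligands, which included ADAM17 and ADAM10, the table held RHBDF1 alone. RHBDF1 encodes iRhom1, a protein that helps ADAM17 mature and reach the cell surface, and it rose to 49.3, 39.1 and 41.5 FPKM in H/R replicates 1, 2 and 3, against 21.2, 17.8 and 18.8 FPKM in control replicates 1, 2 and 3 (log2 difference 1.13 ± 0.12, limma adjusted p = 3.50e-04).

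Among 22 genes that act on the receptor after activation, 5 had a row, and all 5 rose. CBL, the ubiquitin ligase that marks active EGFR for degradation, had 36.3, 45.15 and 43.6 FPKM in H/R replicates 1, 2 and 3, against 16.0, 20.5 and 23.7 FPKM in control replicates 1, 2 and 3 (log2 difference 1.03 ± 0.18). PTPN12, a phosphatase that dephosphorylates several receptor kinases and their adaptors, averaged 30.5 ± 5.60 FPKM in H/R and 10.8 ± 3.95 FPKM in control (log2 difference 1.45). LRIG3, a transmembrane protein of a family that regulates ERBB receptors, averaged 17.6 ± 4.65 FPKM in H/R and 6.61 ± 2.12 FPKM in control, and CAV1, which encodes the caveolae protein caveolin-1, 13.5 ± 3.96 FPKM in H/R and 4.53 ± 0.974 FPKM in control. EPS15, an endocytosis adaptor, had a log2 difference of 1.00 ± 0.42 with an adjusted p of 0.013 by limma, and was the pathway gene whose groups overlapped. Its call was lost without H/R replicate 3 (limma adjusted p = 0.051) and in a linear model without moderation (adjusted p = 0.079), and over its 14 alternatives the adjusted p ranged from 4.25e-04 to 0.079.

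Of 24 genes that relay the signal from the receptor to ERK, 2 were in the table, with a median log2 difference of 0.88, the lowest of the lists with more than 1 gene in the table. MAP2K1, which encodes the kinase MEK1, averaged 103 ± 6.53 FPKM in H/R and 52.1 ± 1.56 FPKM in control (log2 difference 0.97 ± 0.057). SOS2, an exchange factor that activates RAS, averaged 4.84 ± 0.929 FPKM in H/R and 2.40 ± 0.872 FPKM in control (0.80 ± 0.27). The RAS, RAF and ERK genes listed were not in the table.

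The genes listed for feedback on the RAS and ERK cascade, most of which encode inhibitors, had the highest median difference of the lists. Not every gene listed is an inhibitor or specific to ERK, as with IER3 and DUSP8, and ERK activity was not measured. Of 17 genes, 12 had a row, and all 12 rose, with a median log2 difference of 2.12. Phosphatase genes led the list, with log2 differences of 3.78 for DUSP6, 3.23 for DUSP5, 3.03 for DUSP4 and 2.77 for DUSP8. DUSP4 had 19.9, 19.2 and 14.9 FPKM in H/R replicates 1, 2 and 3, against 1.15, 1.86 and 1.02 FPKM in control replicates 1, 2 and 3. SPRED1 and SPRY4, inhibitors that act between receptor and RAF, differed by 2.55 and 2.11. SPRY4 had 24.7, 23.0 and 21.1 FPKM in H/R replicates 1, 2 and 3, against 4.51, 4.65 and 4.48 FPKM in control replicates 1, 2 and 3. IER3, counted once from rows with identical values, and DUSP1 differed by 2.14 and 1.70. The other 4 genes, from SPRY2 at the upper end to DUSP2 at the lower end, differed by 1.55 to 1.01.

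Of 26 genes listed for ERK-dependent induction, 19 had a row, and all 19 rose, with a median log2 difference of 1.82. Whether their rise depended on ERK in these cells was not tested. FOSL1, which encodes an AP-1 subunit that accumulates under sustained ERK activity, had 32.7, 45.9 and 26.3 FPKM in H/R replicates 1, 2 and 3, against 3.49, 0.79 and 0.63 FPKM in control replicates 1, 2 and 3 (log2 difference 3.90 ± 0.52). MYC, PHLDA1, MMP1, JUNB and KLF6 differed by 2.65, 2.41, 2.34, 2.27 and 2.25. PLAUR, the urokinase receptor gene, had 7.69, 7.03 and 7.16 FPKM in H/R replicates 1, 2 and 3, against 1.26, 1.11 and 1.20 FPKM in control replicates 1, 2 and 3 (log2 difference 1.92 ± 0.045), and FOSB differed by 2.04. The other 11 genes differed by 0.91 (EGR2) to 1.88 (JUN), and IL11 was listed at 0 in control replicate 3. H/R replicate 2 was the highest H/R sample in 15 of these 19 genes and in 7 of the 12 feedback genes, as it was for AREG, EREG, HBEGF and ERRFI1, against 34.3% of all rows that rose. It was also highest in both relay genes, but in only 1 of the 5 genes that act on the receptor, 3 of which were highest in H/R replicate 3, and RHBDF1 was highest in H/R replicate 1.

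**Figure D4:**
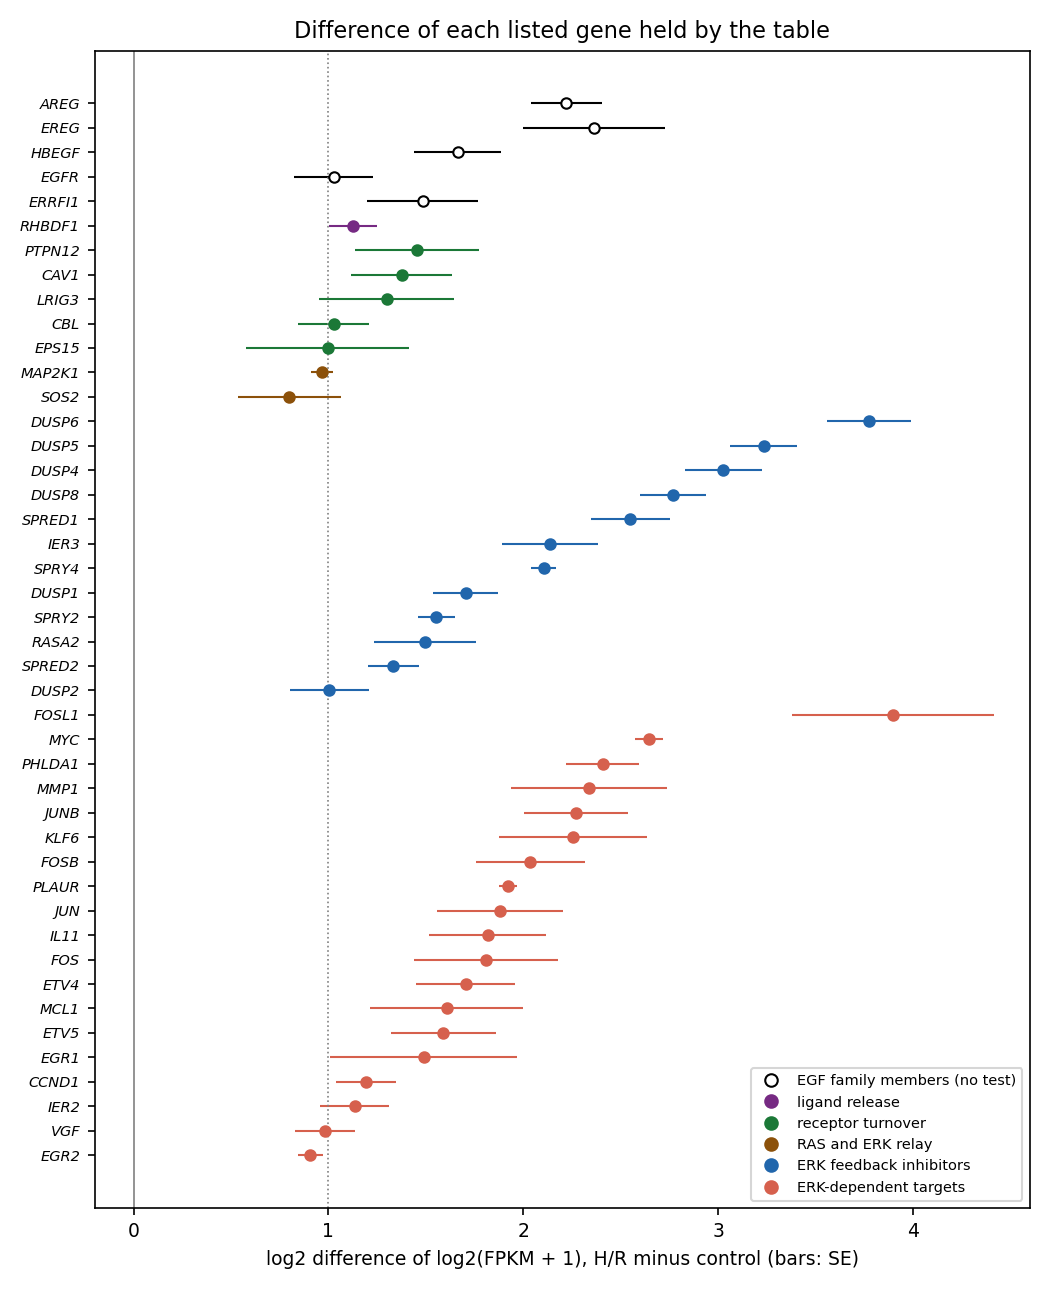
Log2 difference (H/R minus control, on log2(FPKM + 1)) with its SE for the 5 members (open, no test) and the 39 pathway genes in the table (filled, coloured by list), with a dotted line at 2-fold. The list labelled ERK feedback inhibitors reaches 3.78 (DUSP6) and the list labelled ERK-dependent targets 3.90 (FOSL1), while MAP2K1 and SOS2 of the relay lie at 0.97 and 0.80. Dependence on ERK was not tested.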

How the data were processed

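RNA-seq libraries of poly(A) RNA from 6 Caco-2 samples were compared, 3 after H/R and 3 control, with groups and replicate numbers taken from the sample titles. The authors deposited 1 table of log2 values per gene and sample, which are log2(FPKM + 1) of FPKM rounded to 0.01 (100% of values within 1e-05 FPKM). Neither the aligner nor the counting method is given in the sources used here, and the submitters' processing notes name mouse builds although the symbols are human, so no coordinates are taken from the table. Identical copies of a symbol were counted once, which removed 51 rows and left 2206, of which 2034 had a mean of at least 1 FPKM and were tested. Groups were compared with limma 3.58.1 under R 4.3.3 (group as the only term, moderated two-sided test, mean-variance trend), and p-values were adjusted by Benjamini-Hochberg with 0.05 as threshold. The fit was also run on simulated data with independent noise and far fewer changed rows than these data have. That run therefore does not vouch for the p-values given here. Adjustment within rows selected for change can give smaller values than over all genes would, and the pseudocount of 1 makes the differences of low genes too small. Depth is unknown, so no counting interval was given. The members and lists were chosen with earlier results of these data known. Text names all members, up to 8 genes per list by absolute log2 difference, and the 5 rows nearest to AREG and to EREG, and the ends of the range of a longer list and IL11 were chosen after their values were seen. Of a symbol with several rows, the row with the highest mean was used. Motifs were searched on both strands of the 250 bases before each RefSeq start. Alternatives were a pseudocount of 0.1, no filter, a minimum of 5 FPKM, 3 scalings, the replicate number as a block, an ordinary linear model, and leaving out each sample.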

Additional observations from a re-analysis of the deposited data

How the results depend on the processing

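Of the 14 alternatives, none reversed a direction among the 35 named genes. The replicate block, the ordinary linear model and the changed filters leave every log2 difference as it was, so they could not have reversed one. The members at least 2-fold higher numbered 4 or 5 when a replicate was left out, and 4 with quantile normalization, where EGFR dropped under the line. Of the tested pathway genes, EPS15 lost its call under 2 alternatives. The count of pathway genes that rose lay between 32 (a minimum of 5 FPKM, under which fewer were tested) and 39, and the count that fell was 0 throughout. Scaling shifted the median log2 difference of all rows by 0.26 (equal totals), 0.39 (median of ratios) and 0.18 (quantile normalization), and relative to that shift the log2 differences of the members ran from 1.11 to 2.43, 1.14 to 2.45 and 0.79 to 2.41, against 1.03 to 2.36 as reported. All 5 were larger than reported on this basis with equal totals and median of ratios. The pseudocount of 1 makes a scaling move low rows less than high ones, so the shifted median is not the scaling applied. The log2 factors for equal totals were -0.18, -0.13 and -0.22 in H/R samples, against 0.31, 0.15 and 0.07 in control samples. A gain of the members beyond the scaling is therefore not read from these values. With quantile normalization AREG was larger on the same basis (2.41), and EREG (2.15), HBEGF (1.41), ERRFI1 (1.33) and EGFR (0.79) were smaller. The pseudocount of 0.1 moved several genes of low level more than scaling did, such as ARL14 (3.48, against 2.51 as reported) and FOSL1 (4.69, against 3.90). Of rows that differed at least 2-fold, 46.4% were higher in H/R as reported, 69.8% with equal totals and 78.8% with median-of-ratios scaling. Deviations of same-numbered samples correlated at 0.50, 0.07 and 0.52 for numbers 1, 2 and 3. Those of control 1 with H/R 3 and of control 3 with H/R 1 correlated at -0.49 and -0.50. Deviations cancel out within a group, so these negative values are tied to the positive ones and add little. Numbers 1 and 3 thus varied alike in both groups and number 2 did not, and whether the numbers mark a pairing is not stated. The slopes along GC content also fell from number 1 to number 3 in both groups, and their part here was not tested. With the replicate block, 946 rows rose and 1082 fell, and the 39 pathway genes rose. Each number has a sample in both groups, so the block could not change the differences of the 5 members. Selected rows and unknown depth limit what these values can show.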
